A study of Mus musculus with 8 samples.

Results

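The transcripts described here encode the muscle side of the neuromuscular junction, where a motor nerve contacts a muscle fibre. They are 10 genes chosen by name and role, with no threshold on any measured value: the 5 acetylcholine receptor subunits Chrna1, Chrnb1, Chrnd, Chrne and Chrng, the 4 genes of the MuSK complex, Musk, Dok7, Rapsn and Lrp4, and Colq, which encodes a collagen tail. All 10 were among the 23930 genes of the table, and 9 were abundant enough to be tested. RNA came from whole tibialis anterior, a fast muscle of the lower leg, in 4 KO libraries and 4 WT libraries. KO mice carried an inducible HSA-Cre, a recombinase driven in muscle fibres by a skeletal actin promoter, together with Lox-SDHC alleles. WT mice were littermates with the same HSA-Cre and No Lox alleles. Both groups received tamoxifen at 12 weeks of age and were sampled 20 weeks later, at a single time point, and the labels give the strain as C57BL/7 (KO 1) or C57BL/8 (KO 2 to KO 4) and as C57BL/6 (WT), where the growth protocol names C57/B6 for the mice.

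In adult muscle the acetylcholine receptor is a ring of alpha, beta, delta and epsilon subunits. Fetal and denervated fibres build it with the gamma subunit in place of epsilon. The nerve secretes agrin, which binds Lrp4 on the fibre and thereby activates the receptor kinase MuSK. Dok7 binds MuSK inside the fibre and boosts its activity, and rapsyn, the product of Rapsn, anchors receptors in dense clusters. ColQ fastens acetylcholinesterase to the synaptic basal lamina. A few nuclei under the nerve ending transcribe most of these genes, and loss of nerve activity switches several of them on along the whole fibre through myogenic factors such as myogenin, which bind E-box sequences.

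Start sites of 6 of the 10 genes were found in RefSeq's table of promoters (GRCm38.p6), all except those of Chrnd, Rapsn, Lrp4 and Colq. Stretches of 180 bases before the start are shown for 4 genes: for Chrng and Chrne, because they encode the subunits that replace each other, and for Chrna1 and Musk, because denervation is known to induce them. Each is written 5′ to 3′ on the gene's own strand, and capitals mark every E-box (CANNTG) and every N-box (CCGGAA, searched on both strands), a site for ETS factors in synaptic nuclei.
Chrng, chr1:87205631-87205810, plus strand: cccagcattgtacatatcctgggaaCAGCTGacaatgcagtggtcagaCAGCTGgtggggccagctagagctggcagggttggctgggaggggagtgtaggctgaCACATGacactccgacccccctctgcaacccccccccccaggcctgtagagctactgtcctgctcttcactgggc
Chrne, chr11:70619195-70619374, minus strand: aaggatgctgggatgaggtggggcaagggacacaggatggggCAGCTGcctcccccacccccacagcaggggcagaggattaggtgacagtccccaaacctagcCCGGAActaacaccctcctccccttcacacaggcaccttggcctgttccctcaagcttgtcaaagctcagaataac
Chrna1, chr2:73580339-73580518, minus strand: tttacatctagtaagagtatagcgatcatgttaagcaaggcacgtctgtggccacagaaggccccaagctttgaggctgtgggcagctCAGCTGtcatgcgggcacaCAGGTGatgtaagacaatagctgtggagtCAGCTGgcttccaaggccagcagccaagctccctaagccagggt
Musk, chr4:58285782-58285961, plus strand: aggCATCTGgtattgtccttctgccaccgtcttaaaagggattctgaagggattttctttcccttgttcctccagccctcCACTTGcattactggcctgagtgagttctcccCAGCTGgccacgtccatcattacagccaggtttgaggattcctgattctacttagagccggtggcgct

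Within 250 bases before the start, Chrng, Chrna1 and Musk each held 3 E-boxes and Chrne held 1. Chrnb1, whose stretch is not shown, also held 3, and Dok7 held 1 before 1 start and 0 before another. The palindromic form CAGCTG, which is also a CANNTG match, lay 155 and 132 bases before the start of Chrng, 92 and 44 before that of Chrna1, 68 before that of Musk and 138 before that of Chrne. Chrnb1 and Dok7 held no CAGCTG. Of the 6 genes with a window, Chrne was the one with an N-box, 76 bases before its start. Across all 32851 RefSeq windows of this length, 66.2% held a CANNTG, 13% a CAGCTG and 12% an N-box, so a CANNTG match is common. A match describes the letters and does not show that a factor was bound.

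Targeted sequencing counted 1 amplicon per gene, in libraries of 4774602 to 7281574 reads in KO and 5989770 to 7091352 reads in WT. Values are RPM, reads per 1000000 reads of the library. Amplicons differ in how well they amplify, so levels are compared between libraries and not between genes. Sdhc, the targeted gene, stood at 17.1, 14.5, 22.8 and 49.4 RPM in KO 1 to KO 4, against 574, 693, 795 and 722 RPM in WT 1 to WT 4 (exact two-sided permutation p = 0.0286, n = 4 each, the smallest that 4 against 4 libraries can give). Xist, a transcript of the inactive X chromosome, was present in KO 4 and WT 1 (98.9 and 77.3 RPM) and at most 0.334 RPM in the other 6. Ddx3y, a Y chromosome gene, had 0 RPM in KO 4 and WT 1 and 78.6 to 91.5 RPM in the other 6. Sex is not among the labels used here. Whole-muscle RNA cannot separate a change in the number of synaptic nuclei from a change in RNA per nucleus. Markers of the labelled tissue were abundant, with 10 muscle fibre genes summing to between 92340 and 146600 RPM in KO and between 118800 and 177500 RPM in WT. Chat, which makes acetylcholine in motor nerves, had 0 RPM in the 4 KO libraries and at most 0.141 RPM in WT. Whether Chat RNA in whole muscle follows nerve content was not tested, so these values do not measure innervation.

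The comparison set junction transcripts in KO muscle, where Sdhc was reduced, against those in WT muscle. None of the 9 genes tested passed the comparison of KO with WT (limma on log2(RPM + 1), Benjamini-Hochberg adjusted p under 0.05 over 11087 genes), where 0.803% of all genes tested did (0.523% higher and 0.28% lower in KO). Nor did edgeR or DESeq2 call any of them on the recovered reads (0.83% and 2.16% of genes called), nor did limma after rescaling by TMM factors (scaling by a trimmed mean), which called 0.938%. At an unadjusted p under 0.05 limma held 1 of the 9, Colq, where 16.1% of genes tested reached that level (13.1% higher and 3.07% lower in KO), and edgeR and DESeq2 each held another, Chrnb1 (13.1% and 11.7% of genes at that level in those tools). In none of the 9 did all 4 KO libraries lie on one side of all 4 WT libraries, where 9.1% of genes tested showed such a gap (7.5% with KO higher, 1.61% with KO lower). The log2 fold change was above 0 in 3 of the 9, where 70% of genes tested were above 0. Across all genes tested the median log2 fold change was 0.13 with the RPM as deposited and 0.0054 after TMM rescaling. Each gene's distance from that 0.13 is therefore given as its relative value. The median of the 9 was -0.07 on the deposited scale and -0.19 relative to the median gene. The 10 muscle fibre markers had a median of -0.35 relative to all genes, with a log2 fold change above 0 in 0 of the 10 and 0 passing in limma. Of these markers 1, the actin gene Acta1, was lower in KO at an unadjusted p under 0.05 (limma adjusted p = 0.208). The part of fibre RNA in the junction genes' values was not tested.

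**Figure D1:**
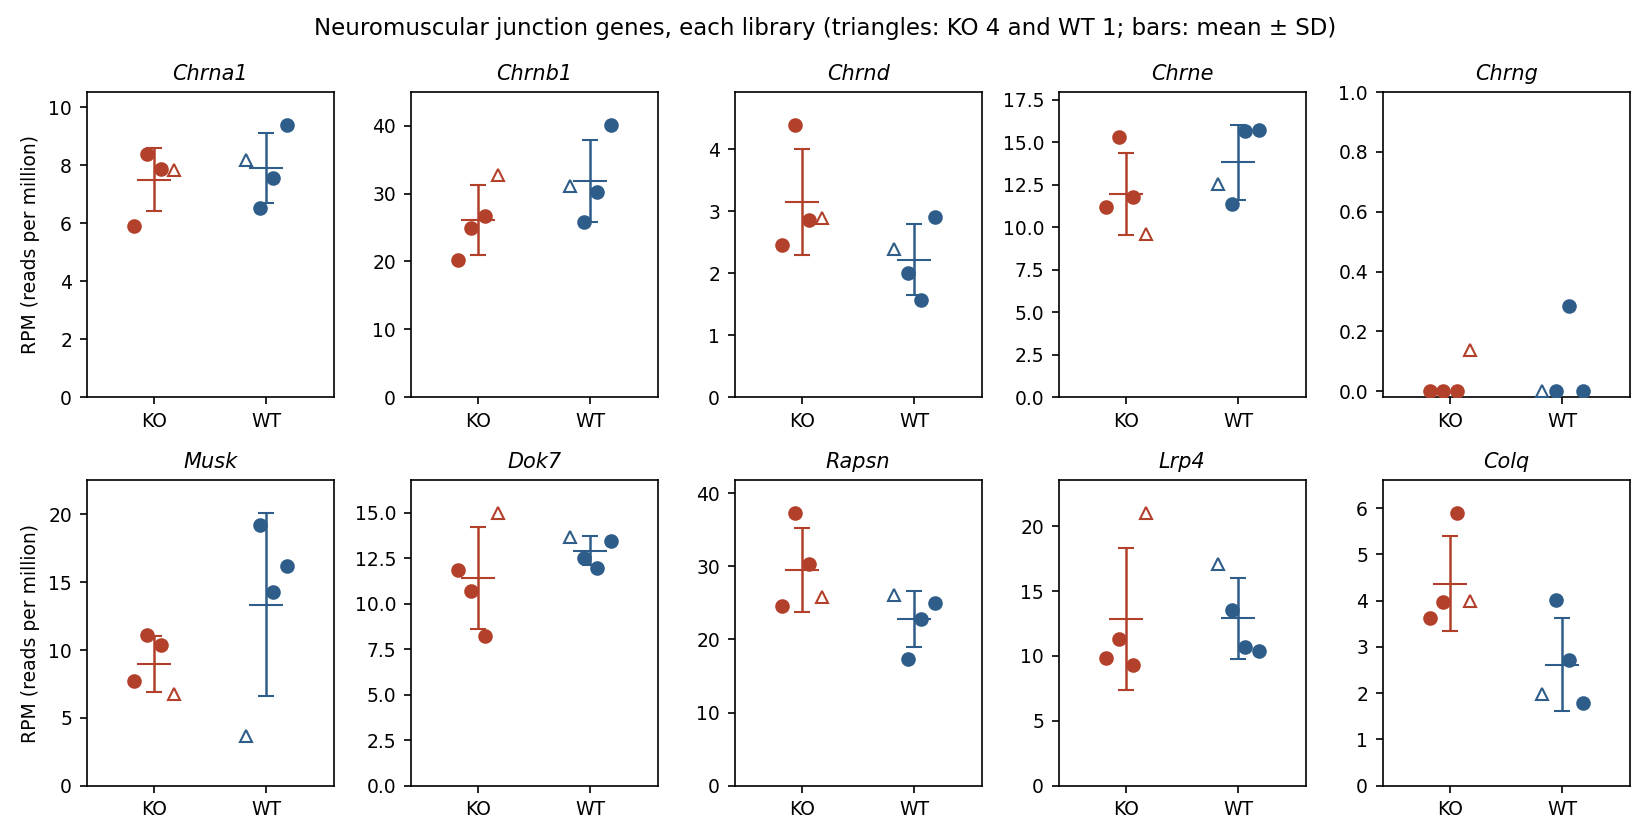
RPM of each of the 10 genes in the 4 KO libraries (red) and the 4 WT libraries (blue), each panel with its own axis from 0. Points are libraries, triangles are KO 4 and WT 1, and bars are the mean ± SD (left out for Chrng, which had at most 2 reads in a library). The groups overlap in every panel, and the triangles are low in both groups for Musk and high in both for Lrp4.

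Among the receptor subunits, the alpha subunit gene Chrna1, which carries the acetylcholine binding site, had 5.92, 8.38, 7.85 and 7.83 RPM in KO 1 to KO 4, against 8.18, 6.51, 7.56 and 9.39 RPM in WT 1 to WT 4. The KO libraries lay inside the WT range except KO 1, the lowest of the 8. The means were 7.49 ± 1.08 RPM in KO muscle and 7.91 ± 1.2 RPM in WT muscle (SD, n = 4 each), a log2 fold change of -0.07 with a 95% interval of -0.44 to 0.31 (relative value -0.19, limma adjusted p = 0.88). On this scale the interval allows a KO level between 0.735 and 1.24 times that of WT. The spread among KO libraries, a coefficient of variation of 14.4%, was no wider than the 15.2% that counting alone gives at 36 to 57 reads per library. Chrna1 lies at chr2:73563215-73580338 on the minus strand (GRCm38, GENCODE M21, as for the genes that follow).

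Chrnb1, the beta subunit gene, had 20.2, 24.9, 26.8 and 32.7 RPM in KO, against 31.2, 25.9, 30.2 and 40.2 RPM in WT. The order of libraries was mostly WT above KO, with KO 4 above 3 of the WT libraries. The means were 26.1 ± 5.16 RPM in KO muscle and 31.9 ± 6 RPM in WT muscle (log2 fold change -0.28, 95% interval -0.64 to 0.09, relative value -0.40 with a 95% interval of -0.77 to -0.04, limma adjusted p = 0.432). Chrnb1 was the most deeply read subunit, with 630 reads over the KO and 836 over the WT libraries, so counting alone gives a coefficient of variation of 8.07% in KO and 6.94% in WT, against measured values of 19.7% and 18.8%. Chrnb1 lies at chr11:69784036-69795943 on the minus strand.

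Chrnd, the delta subunit gene, had 2.46, 4.4, 2.86 and 2.88 RPM in KO, against 2.4, 2, 1.57 and 2.92 RPM in WT. KO 2 was the highest library and WT 4 lay above 3 of the 4 KO libraries. The log2 fold change was 0.36 (95% interval -0.09 to 0.82, relative value 0.24, limma adjusted p = 0.411), from 73 reads in KO and 58 in WT, so counting alone gives a coefficient of variation of 23.7% in KO and 26.3% in WT. Chrnd lies at chr1:87190607-87200070 on the plus strand.

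Chrne, the adult epsilon subunit gene, had 11.2, 15.3, 11.8 and 9.61 RPM in KO, against 12.6, 11.4, 15.7 and 15.7 RPM in WT. KO 4 was the lowest library and WT 3 and WT 4 the highest. The means were 12 ± 2.4 RPM in KO muscle and 13.8 ± 2.22 RPM in WT muscle (log2 fold change -0.20, 95% interval -0.57 to 0.18, relative value -0.32, limma adjusted p = 0.596). Chrne overlaps 4930544D05Rik on the other strand, and the sources used here do not state whether reads were assigned by strand. Chrne lies at chr11:70614883-70619216 on the minus strand.

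The fetal gamma subunit gene Chrng had close to no reads in either group. It had 0, 0, 0 and 1 read in KO 1 to KO 4, against 0, 0, 2 and 0 reads in WT 1 to WT 4. No library passed 3 reads, so the gene was not tested and no fold is given. Over the pooled reads the level was 0.0421 RPM in KO (exact 95% Poisson interval 0.00107 to 0.235) and 0.0761 RPM in WT (0.00922 to 0.275), intervals that cover counting error only. Chrng supplied 0.36% of the 278 Chrng and Chrne reads in KO (exact Clopper-Pearson 95% interval 0.00911% to 1.99%) and 0.546% of 366 reads in WT (0.0663% to 1.96%). These are shares of reads and not of transcripts, and how well the Chrng amplicon amplifies was not tested. The mean share per library was 0.352% in KO and 0.446% in WT (two-sided p = 1 in the exact permutation test, n = 4 each). Only KO 4 and WT 3 had any Chrng read, so no arrangement of the libraries could bring that p under 0.05. This test thus cannot decide whether the share shifted. The pooled share was not higher in KO than in WT, and its interval in KO, which covers counting error only, reached 1.99%. Chrnd and Chrng are neighbours on chromosome 1 (GRCm38), 4586 bases apart and on the same strand, and Chrnd had at least 11 reads in every library. Chrng lies at chr1:87204657-87212694 on the plus strand, and the RefSeq start used for its promoter lies inside that interval.

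**Figure D2:**
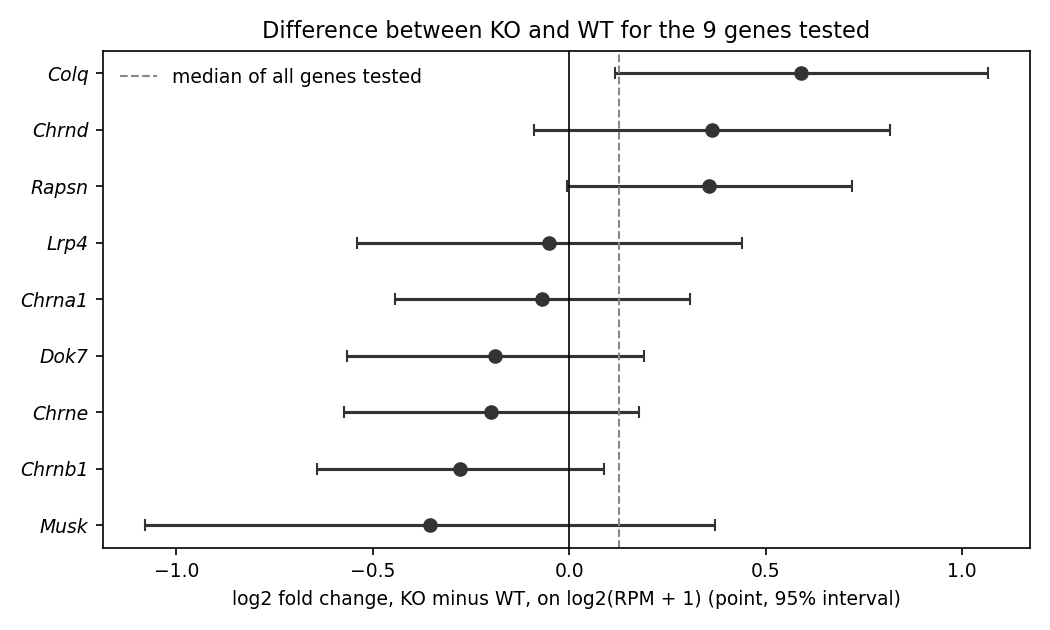
Log2 fold change of KO over WT on log2(RPM + 1) for the 9 genes tested, with 95% intervals from limma; the solid line is 0 and the dashed line is the median of all genes tested (0.13). Colq is the gene whose interval lies above 0, and Musk has the widest interval (-1.08 to 0.37).

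In the MuSK complex the kinase gene Musk varied most among WT libraries, and Lrp4 among KO libraries. Musk had 7.72, 11.1, 10.4 and 6.73 RPM in KO 1 to KO 4, against 3.67, 19.2, 14.3 and 16.2 RPM in WT 1 to WT 4. WT 1 was the lowest of all 8 libraries and the other WT libraries were the highest. The means were 8.98 ± 2.08 RPM in KO muscle and 13.3 ± 6.76 RPM in WT muscle (log2 fold change -0.35, 95% interval -1.08 to 0.37, relative value -0.48, limma adjusted p = 0.63). The coefficient of variation was 23.2% in KO and 50.7% in WT, where counting alone gives 14.1% and 10.9%. Without WT 1 the log2 fold change was -0.83 (limma adjusted p = 0.0515), and without WT 2 it was -0.13 (limma adjusted p = 0.9). On the recovered reads it was -0.71 in edgeR (adjusted p = 0.398) and -0.70 in DESeq2 (adjusted p = 0.643). In the 6 libraries without Xist the means were 9.72 ± 1.77 RPM in KO muscle and 16.6 ± 2.49 RPM in WT muscle (n = 3 each). The 3 KO libraries then lay below the 3 WT libraries, as in 6.34% of genes tested there (24.6% in either direction), with a log2 fold change of -0.72 (95% interval -1.13 to -0.29, limma adjusted p = 0.0541), which did not pass. In those 6 libraries 3.62% of genes passed and 19.1% reached an unadjusted p under 0.05. Musk lies at chr4:58285960-58374303 on the plus strand.

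Dok7, the cytoplasmic activator of MuSK, had 11.8, 10.7, 8.21 and 15 RPM in KO, against 13.7, 12.5, 12 and 13.4 RPM in WT. The KO libraries spread on both sides of a narrow WT group, with KO 4 above every WT library and the other 3 KO libraries below every one. The coefficient of variation was 6.16% in WT, narrower than the 10.9% that counting alone gives. In KO it was 24.6%, where counting alone gives 12.1%. The log2 fold change was -0.19 (95% interval -0.57 to 0.19, relative value -0.31, limma adjusted p = 0.621). Without KO 4 it was -0.32 (limma adjusted p = 0.343), and without KO 3 it was -0.05 (limma adjusted p = 0.937). Dok7 lies at chr5:35056766-35087839 on the plus strand.

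Lrp4, the agrin receptor, had 9.86, 11.3, 9.28 and 21 RPM in KO, against 17.1, 13.5, 10.7 and 10.4 RPM in WT. KO 4 was the highest library and WT 1 the next, and the means were nearly equal, at 12.9 ± 5.5 RPM in KO muscle and 12.9 ± 3.11 RPM in WT muscle (coefficient of variation 42.7% in KO and 24.1% in WT, log2 fold change -0.05, 95% interval -0.54 to 0.44, relative value -0.18, limma adjusted p = 0.932). Without KO 4 the log2 fold change was -0.30 (limma adjusted p = 0.421), and without WT 1 it was 0.08 (limma adjusted p = 0.894). Lrp4 lies at chr2:91457511-91513779 on the plus strand.

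Rapsn, whose product clusters the receptors, had 24.6, 37.3, 30.3 and 25.8 RPM in KO, against 26.1, 17.4, 22.8 and 24.9 RPM in WT. KO 2 and KO 3 were the highest libraries and WT 2 the lowest. The means were 29.5 ± 5.73 RPM in KO muscle and 22.8 ± 3.87 RPM in WT muscle (log2 fold change 0.36, 95% interval -0.01 to 0.72, relative value 0.23, limma unadjusted p = 0.0535 and adjusted p = 0.315). Rapsn overlaps Gm13778 on the other strand. Rapsn lies at chr2:91035620-91045729 on the plus strand.

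Colq had the largest log2 fold change of the 9 on the deposited scale, while Musk had the larger one in size relative to the median gene (-0.48 against 0.46 for Colq), with quantile normalization, in edgeR and in DESeq2. Colq had 3.61, 3.98, 5.89 and 3.98 RPM in KO, against 1.97, 4.01, 2.71 and 1.78 RPM in WT. WT 2 lay above 3 of the 4 KO libraries, and the other WT libraries lay below all 4. The means were 4.37 ± 1.03 RPM in KO muscle and 2.62 ± 1.01 RPM in WT muscle, a log2 fold change of 0.59 (95% interval 0.12 to 1.06, relative value 0.46, limma unadjusted p = 0.018 and adjusted p = 0.211). It ranked 941 of the 11087 genes by p, and 11 to 33 reads per library lay behind it. Relative to the median gene its 95% interval was -0.01 to 0.94. Colq overlaps the genes Gm24057 and Gm49387 on the same strand, from which reads could come. Acetylcholinesterase itself, Ache, had 8.04 ± 1.1 RPM in KO muscle and 6.34 ± 1.87 RPM in WT muscle (limma adjusted p = 0.441). Colq lies at chr14:31523082-31591343 on the minus strand.

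**Figure D3:**
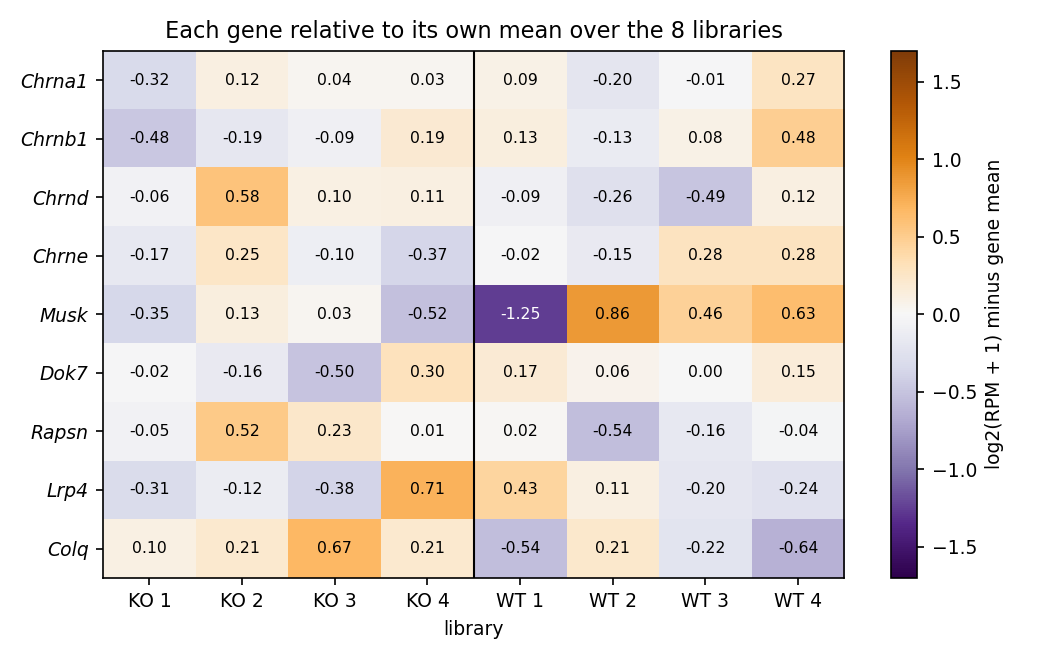
Log2(RPM + 1) of the 9 genes tested, each minus its own mean over the 8 libraries, with KO libraries left of WT libraries; orange is above and purple below the gene's mean. The values run from -1.25 (Musk in WT 1) to 0.86 (Musk in WT 2), and no column is high or low for all 9 genes.

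The 9 genes did not move as one block across libraries. KO 1 lay above the gene's own mean for 1 of the 9 and KO 4 for 7, and the other libraries for 3 to 6. Their sum, Chrng included, was 116 ± 13.8 RPM in KO muscle and 120 ± 9.92 RPM in WT muscle. Musk had both libraries with Xist below the other 6, while Dok7 and Lrp4 had both above the other 6. Among all genes tested, 3.68% had both of these libraries below the rest and 4.72% had both above, 8.4% in all, against 3 of the 9. The 5 genes outside the list closest to the mean standardised profile of the 9 were Psmd4, Mrps9, Mtg1, Rcor2 and Marf1, with Pearson r of 0.957, 0.95, 0.945, 0.929 and 0.921 over the 8 libraries. They were picked as the closest of all genes tested, so these r describe likeness and have no p. None of the 5 passed the comparison of KO with WT (limma adjusted p from 0.846 to 0.986).

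Other proteins of the synapse were described in the same way. Of 38 genes for nerve signals, MuSK partners, the dystrophin complex at the synapse, basal lamina and synaptic nuclei, 34 were tested and 0 passed in limma, edgeR or DESeq2, with 7 higher and 0 lower at an unadjusted p under 0.05 in limma and a median of 0.05 relative to all genes. Of all genes tested 13.1% were higher and 3.07% lower at that level, the background for this list and for the lists and markers that follow. The smallest p belonged to Nid2, a basal lamina nidogen, at 17.9 ± 3.81 RPM in KO muscle and 10.3 ± 1.71 RPM in WT muscle (relative value 0.60, limma adjusted p = 0.0733). The ETS factor Etv5, which is enriched in synaptic nuclei, had 13.1, 15.3, 21.6 and 16.1 RPM in KO, against 11.8, 10.9, 9.55 and 11.5 RPM in WT. All 4 KO libraries lay above all 4 WT libraries, but the gene did not pass (relative value 0.41, limma adjusted p = 0.153). Lama4, a synaptic laminin chain (relative value 0.33, limma adjusted p = 0.161), and the adaptor gene Crkl, whose product binds Dok7 (0.40, limma adjusted p = 0.173), showed the same gap without passing. Nid2 passed in the 6 libraries without Xist (limma adjusted p = 0.0113) and without KO 4 (limma adjusted p = 0.0223). It also passed with a term for Xist in all 8 libraries (limma adjusted p = 0.0466). Dtna, the gene of dystrobrevin alpha, passed in the first 2 of these settings. Over all 8 libraries Dtna had 72.6 ± 20.4 RPM in KO muscle and 47.1 ± 8.42 RPM in WT muscle (limma adjusted p = 0.18). Endothelial markers, whose cells also make basal lamina, summed to between 627 and 823 RPM in KO and between 425 and 580 RPM in WT. Of these 10 markers 0 passed in limma and 8 had a higher level in KO at an unadjusted p under 0.05, and their part in the values of Nid2 and Lama4 was not tested. Agrn, the agrin gene, had 3.99 ± 1.04 RPM in KO muscle and 2.68 ± 0.869 RPM in WT muscle (limma adjusted p = 0.353), and Utrn, the utrophin gene, had 66.7 ± 10.6 RPM in KO muscle and 54.5 ± 5.05 RPM in WT muscle (limma adjusted p = 0.354). The muscle sodium channel gene Scn4a had 565 ± 94.5 RPM in KO muscle and 561 ± 40 RPM in WT muscle (limma adjusted p = 0.997).

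Genes that denervation is known to induce, other than the receptor and MuSK genes, were mixed. Of 13 such genes, 12 were tested and 1 rose in limma, with 3 higher and 0 lower at an unadjusted p under 0.05 and a median of 0.06 relative to all genes. Gadd45a, a growth arrest gene, rose to 166, 206, 212 and 145 RPM in KO 1 to KO 4, against 86.6, 55.6, 45.6 and 55.9 RPM in WT 1 to WT 4 (relative value 1.46, limma adjusted p = 3.56e-04), with no overlap. Cdkn1a, a cell cycle inhibitor, had 56.9, 40.8, 46 and 89.5 RPM in KO, against 60.8, 19.5, 23.5 and 19.6 RPM in WT (relative value 0.88, limma adjusted p = 0.128). Myog, the gene of the E-box factor myogenin, had 5.75, 9.01, 6.43 and 9.34 RPM in KO, against 14.1, 2.5, 2 and 3.72 RPM in WT (relative value 0.57, limma adjusted p = 0.364). In both genes WT 1 stood well above the other 3 WT libraries, all of which lay below every KO library. Without WT 1 both passed, Cdkn1a at a log2 fold change of 1.38 (limma adjusted p = 0.00373) and Myog at 1.21 (limma adjusted p = 0.0144), and both passed in the 6 libraries without Xist. Those 6 libraries also leave out WT 1, the library that stood apart in both genes, so these passes are not separate results. With a term for Xist in all 8 libraries Cdkn1a passed (limma adjusted p = 0.00229) and Myog did not (limma adjusted p = 0.175). Neither passed on the recovered reads: Cdkn1a had an adjusted p of 0.324 in edgeR and 0.579 in DESeq2, and Myog had log2 fold changes of 0.30 (edgeR adjusted p = 0.836) and 0.32 (DESeq2 adjusted p = 0.925). Without WT 3 the log2 fold change of Myog was 0.43 (limma adjusted p = 0.699).

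In those same 6 libraries Myog had 7.06 ± 1.72 RPM in KO muscle and 2.74 ± 0.888 RPM in WT muscle (n = 3 each), while Chrna1 had 7.38 ± 1.3 RPM in KO muscle and 7.82 ± 1.46 RPM in WT muscle (limma adjusted p = 0.889) and Musk had the values given above. The ubiquitin ligase genes Fbxo32 and Trim63, which rise in atrophy, had 747 ± 280 and 574 ± 86.8 RPM in KO, against 741 ± 102 and 662 ± 49.7 RPM in WT (limma adjusted p = 0.928 and 0.434). Fbxo30, another ligase gene, had 24.2 ± 4.93 RPM in KO muscle and 16.4 ± 2.63 RPM in WT muscle (relative value 0.40, limma adjusted p = 0.163). Runx1 and Ncam1 had limma adjusted p of 0.388 and 0.909, and the embryonic myosin gene Myh3 was at most 1.05 RPM and was not tested.

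**Figure D4:**
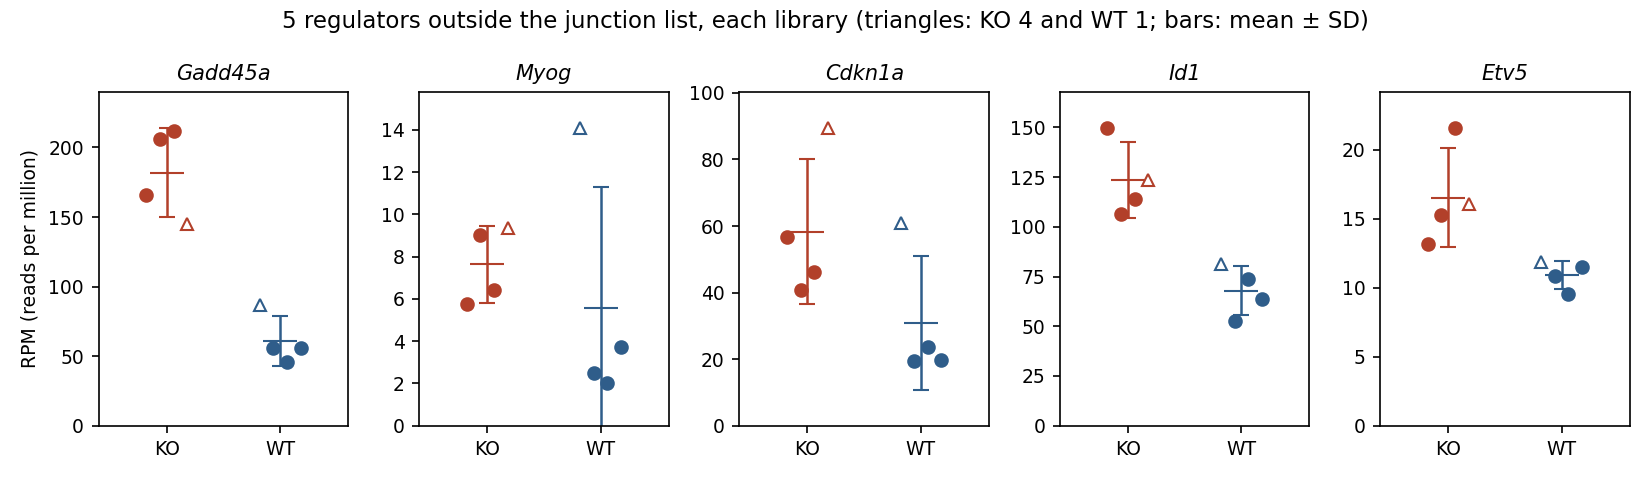
RPM of 5 regulators in the 4 KO libraries (red) and the 4 WT libraries (blue), with axes from 0, triangles for KO 4 and WT 1, and bars for the mean ± SD. Gadd45a, Id1 and Etv5 show no overlap between the groups, and in Myog and Cdkn1a WT 1 (14.1 and 60.8 RPM) lies above the other WT libraries.

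Of 17 myogenic factors, their partners and the repressors that nerve activity controls, 16 were tested and 1 rose in limma, with 2 higher and 0 lower at an unadjusted p under 0.05 and a median of 0.04 relative to all genes. Id1, a protein that binds the partners of myogenic factors and keeps them from E-boxes, rose to 150, 106, 114 and 124 RPM in KO, against 81.2, 52.8, 73.7 and 63.8 RPM in WT (relative value 0.73, limma adjusted p = 0.0165). The groups did not overlap, but the call was lost with TMM factors (limma adjusted p = 0.0548), with quantile normalization (limma adjusted p = 0.0552), in edgeR (adjusted p = 0.0616), without KO 1, WT 2 or WT 3 alone (limma adjusted p from 0.0535 to 0.0703) and without KO 3 and WT 3 together (limma adjusted p = 0.127). Endothelial cells also express Id1 and Id3, and the endothelial sums given above were higher in the same KO libraries, whose part was not tested. Id3 had 87.8 ± 8.94 RPM in KO muscle and 63.4 ± 3.72 RPM in WT muscle (limma adjusted p = 0.101). Myod1 had 11.8 ± 3.59 RPM in KO muscle and 12.1 ± 2.52 RPM in WT muscle (limma adjusted p = 0.923), and Hdac4, a repressor that denervation induces, had 40.7 ± 2.76 RPM in KO muscle and 44.3 ± 5.36 RPM in WT muscle (limma adjusted p = 0.707). Hdac9, which nerve activity maintains, had 5.44 ± 1.24 RPM in KO muscle and 7.46 ± 1.69 RPM in WT muscle (limma adjusted p = 0.346).

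Of 5 enzyme genes for sugar donors and glycosylation whose loss causes congenital myasthenia, 4 were tested and none passed in limma, edgeR or DESeq2, with 1 at an unadjusted p under 0.05 in limma. That gene, Gfpt1, which opens the hexosamine pathway, had 82.7 ± 6.39 RPM in KO muscle and 64.6 ± 3.31 RPM in WT muscle (relative value 0.22, limma adjusted p = 0.189), with all KO libraries above all WT libraries. The adjusted p of Dpagt1, Alg2 and Alg14 were 0.52, 0.917 and 0.984 in limma. Of 16 neuronal acetylcholine receptor and muscarinic genes 1, Chrm3, could be tested (1.31 ± 0.436 RPM in KO, 1.58 ± 0.456 RPM in WT, limma adjusted p = 0.762), and Chrna5 had no read in any library.

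Markers of other cells were read in the same libraries. The 11 nerve markers summed to between 8.74 and 10.7 RPM in KO and between 8.35 and 9.55 RPM in WT. Of these sums Stmn2 made up 8.63 RPM on average in KO and 7.52 RPM in WT, and Syt1 was at 0 throughout. Whether the sums follow nerve content was not tested. Of 6 tendon and myotendinous genes 2 fell in limma, Scx and Col22a1 (adjusted p = 0.0164 and 0.0473). Of 7 macrophage genes 6 were tested and 1 rose, Cd68 (limma adjusted p = 0.0192). The log2 fold change was above 0 in 4 of the 6, and their median was -0.004 relative to all genes. Over all genes tested, 0.523% were higher and 0.28% lower in KO at an adjusted p under 0.05. Satellite cell markers, which include the myogenic factor Myf5, summed to between 82.5 and 144 RPM in KO and between 91.2 and 109 RPM in WT. Fibroblast markers summed to between 1006 and 1702 RPM in KO and between 1138 and 1417 RPM in WT.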

How the data were processed

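Total RNA was read with a targeted panel (Ion AmpliSeq Transcriptome Mouse, per the labels). The authors deposited RPM, reads per 1000000 reads of a library, for 23930 genes. One tool, the Transcriptome Analysis Console, is named in the submitters' processing notes. Aligner, build, filters and strand setting: not given in the sources used here. Groups and replicate numbers came from sample titles, and columns were matched by the barcode in each sample's description. Nothing states that each library was a separate animal, so p-values may measure technical spread. All values were whole multiples of 1 read (100% within 0.05 reads), which gave back read counts. Replicate pairs differed by more than sampling noise (chi-square divided by its degrees of freedom was at least 8.73).

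The 11087 genes that reached 1 RPM in 4 or more libraries entered a limma 3.58.1 fit of log2(RPM + 1), run in R 4.3.3 (variance trend, two-sided, Benjamini-Hochberg), which understates changes of low genes. Intervals are 95%. Alternatives were pseudocounts of 0.5 and 5, other filters, TMM and quantile scaling, no trend, a replicate block, Xist splits, omitted libraries, edgeR 4.0.16 and DESeq2 1.42.0. Fits were tested on simulated data. Members, lists and the rule for named genes (all 10 members, Sdhc, called genes and up to 4 of smallest p per list, and 5 of most like profile) were chosen with earlier results of these data known, and genes named beyond it were chosen after their values were seen. Locations came from GENCODE M21 (GRCm38), promoters from RefSeq, and all 10 members matched by symbol in GENCODE. Figures used matplotlib 3.10.9. Results for some list genes, and for 1 marker list, are not reported here.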

Additional observations from a re-analysis of the deposited data

Results flagged for a closer look

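In 6 of 52 groups of 4 libraries 1 library stood far from the other 3 by Dixon's ratio of gap to range above its 95% critical value, which chance alone exceeds in about 1 in 20 groups. Colq in KO had KO 3 at 5.89 RPM above 3.61 to 3.98 RPM (ratio 0.838), and Alg14 in KO had KO 3 at 10.4 RPM above 4.94 to 5.42 RPM (0.912). Lama4 in KO had KO 4 at 26.1 RPM below 32.3 to 33.4 RPM (0.846). In WT, WT 1 stood above the rest for Cdkn1a, at 60.8 RPM against 19.5 to 23.5 RPM (0.903), and for Myog, at 14.1 RPM against 2 to 3.72 RPM (0.857). Dpagt1 in WT had WT 2 at 15.2 RPM above 12.4 to 12.6 RPM (0.919).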

How the results depend on the processing

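No junction gene was called in any of the 21 alternatives in which it was tested (9 genes in most, 7 with a filter of 5 RPM, which dropped Chrnd and Colq, and 10 with no filter, which added Chrng). Groups overlapped for every one except 2 genes in the 6 libraries without Xist (Musk and Dok7) and 0 to 1 gene when 1 library was left out (Dok7, Musk, Colq and Chrnd without KO 4, WT 1, WT 2 and WT 4). In those 6 libraries 24.6% of genes tested showed such a gap, 6.34% with KO lower. With 1 library left out a gap needs fewer libraries, and no share over all genes is given for it. The gaps named for those fits are therefore not read as a result about the genes. Their median log2 fold change was -0.07 in the main fit, which is -0.19 relative to the median gene. It was -0.20 with quantile normalization, -0.22 in edgeR and DESeq2, and -0.14 to 0.027 with 1 library left out. With 1 library left out, Chrna1 lay between -0.15 and 0.027 and Lrp4 between -0.30 and 0.083. The number of all genes called, 89 (58 higher, 31 lower), was 104 with TMM factors (39 higher, 65 lower), 59 with no filter, 240 in DESeq2, 235 with an Xist term, 392 in the 6 libraries without Xist, 9 without WT 3 and KO 3, and 16 to 263 with 1 library left out. Of the genes in the lists outside the members, cell markers left aside, 2 were called in the main fit. They were Gadd45a from the denervation list and Id1 from the myogenic list. This count was 1 with TMM factors, quantile normalization, edgeR and without WT 3 and KO 3. It was 4 with an Xist term, 6 without Xist libraries, and 1 to 4 with 1 library left out. Alg2 turned to -0.074 with TMM factors, -0.055 with quantile normalization, -0.047 without WT 3 and KO 3, -0.097 in edgeR and -0.099 in DESeq2 (-0.082 to 0.26 with 1 library left out). Alg14 turned to -0.10 with TMM factors, -0.12 with quantile normalization, -0.23 without WT 3 and KO 3, -0.082 in edgeR and -0.083 in DESeq2 (-0.20 to 0.11 with 1 library left out). Relative to the median gene, Alg2 was -0.07 and Alg14 -0.11 in the main fit already. The median over all genes was 0.13 there, 0.0054 with TMM factors, 0.011 with quantile normalization, 0.0077 in edgeR and 0.0067 in DESeq2. The Chrng share differed by -0.09 percentage points (KO minus WT), by 0.41 with 0.5 RPM added, and by -0.45 to 0.35 with 1 library left out. Sdhc (KO minus WT) was -711 to -637 RPM with 1 library left out. The causes were not tested.

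Same-numbered KO and WT libraries were not alike in their deviations from the group mean (correlations -0.01, 0.08, -0.12 and -0.09). The highest across numbers were KO 3 with WT 4 at 0.24 and KO 4 with WT 1 at 0.21. These correlations cannot show whether the libraries were paired by litter or handling. With the replicate block 81 genes were called, and no junction gene. Depth limits Chrng, Chrnd and Colq, with 0 to 33 reads per library.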
